A study of Homo sapiens with 10 samples.

Results

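The protein genes of the mitochondrial ribosome were followed in 10 RNA-seq libraries of human esophageal squamous cell carcinoma cells. Members were taken by name, as every row of the gene table with an MRPL or MRPS symbol, a number and at most a letter A to C, and pseudogenes were not included. There were 78 such genes, all 78 with at least 0.5 CPM (a count scaled to a fixed library total, so a level relative to the whole library) in at least 2 libraries, among 20466 genes that passed the same filter and 58302 rows in the table. KYSE-410 cells had siSHIP2 (3 libraries) or siCT (3), and KYSE-30 cells had siSHIP2 (2) or siCT (2). siSHIP2 is a small interfering RNA against INPPL1, the gene of the inositol lipid phosphatase SHIP2, and siCT is a non-targeting one. All cells were established lines, all were transfected, and all were collected 48 h later. The labels do not say whether replicates were separate cultures, so a p-value here reflects spread among these libraries alone, and that spread may be technical. A different siRNA against INPPL1 named for KYSE-410 was not analysed here, so an effect of the knockdown and one of this siRNA sequence cannot be told apart.

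Mitochondria carry their own ribosome, which makes a small set of inner membrane proteins of the respiratory chain and ATP synthase from messages of the mitochondrial genome. Its rRNAs come from that genome, while every protein is encoded in the nucleus, made in the cytosol and imported. The large subunit joins amino acids and the small subunit reads the message. Some subunits have a counterpart in the bacterial ribosome and others were added in mitochondria. Among the 78 members, 51 belong to the large subunit, MRPS30 and MRPS18A among them despite their names, and 26 to the small subunit. MRPS36 (KGD4) keeps a ribosomal name but encodes a component of the alpha-ketoglutarate dehydrogenase complex. By this assignment, 46 members have a bacterial counterpart and 31 are specific to mitochondria.

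INPPL1 (ENSG00000165458, chr11:72223701-72239105) had 44.7, 37.3 and 39.1 CPM with siSHIP2 and 106.9, 107.8 and 109.2 CPM with siCT in KYSE-410. In KYSE-30 it had 23.2 and 24.5 CPM with siSHIP2 and 39.9 and 36.2 CPM with siCT. The level with siSHIP2 was 37.4% of that with siCT in KYSE-410 and 62.8% in KYSE-30, and it fell in both lines by limma's test (adjusted p = 5.81e-10 and 0.00077). Between 26636 and 28623 genes were above 0 per library, and values came in steps of about 0.05 CPM. All 10 squamous markers examined reached 0.5 CPM in some library, and 9 did so in at least 2. The 10 together summed to 554.7 to 628.7 and 634.6 to 674.9 CPM in KYSE-410 with siSHIP2 and siCT. In KYSE-30 they summed to 407.2 to 412.0 and 392.1 to 460.1 CPM with siSHIP2 and siCT. Of 5 leukocyte markers, 4 stayed under 0.5 CPM in all 10 libraries, PTPRC and CD3E among them. The fifth, CD68, which is also found outside leukocytes, gave most of the summed level of 10.5 to 13.2 and 12.6 to 14.0 CPM in KYSE-410 with siSHIP2 and siCT and of 19.9 to 22.2 and 17.8 to 20.6 CPM in KYSE-30 with siSHIP2 and siCT, and it was lower in KYSE-410 (log2 difference −0.51). Under 0.5 CPM in all libraries were also COL1A2, COL3A1 and PDGFRB of fibroblasts, although the fibroblast list summed to 92.1 to 98.4 and 105.5 to 128.5 CPM in KYSE-410 with siSHIP2 and siCT, beside 6.0 to 6.5 and 6.1 to 6.9 CPM in KYSE-30 with siSHIP2 and siCT.

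With siSHIP2 in KYSE-410, 23 members were higher and 10 lower (adjusted p under 0.05), 33 of 78 or 42.3%. Over all genes tested, 49.9% passed in this comparison, 30.6% higher and 19.3% lower, so the share among the members was not above the background. The direction of the weaker calls depended on how libraries were put on a common scale. The split was 8 higher and 22 lower after TMM scaling, 9 and 23 after relative log expression scaling and 12 and 21 after upper quartile scaling, and over all genes the higher share of calls was 61.3% on the deposited scale and 43.6% after TMM scaling. In all 3 of these scalings as well as on the deposited scale, 8 members stayed higher and 10 lower, and the results below turn on these 18. The median log2 fold change of the 78 members was 0.06 on the deposited scale, beside 0.07 for all genes tested. It was −0.05 after TMM, −0.04 after relative log expression and −0.02 after upper quartile scaling, so its sign turned in all 3. All 3 scalings thus moved the members down, so lower calls were favoured to stay and their staying adds little support. On the deposited scale no member reached a 2-fold difference, and this was not counted for the other scalings.

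**Figure D1:**
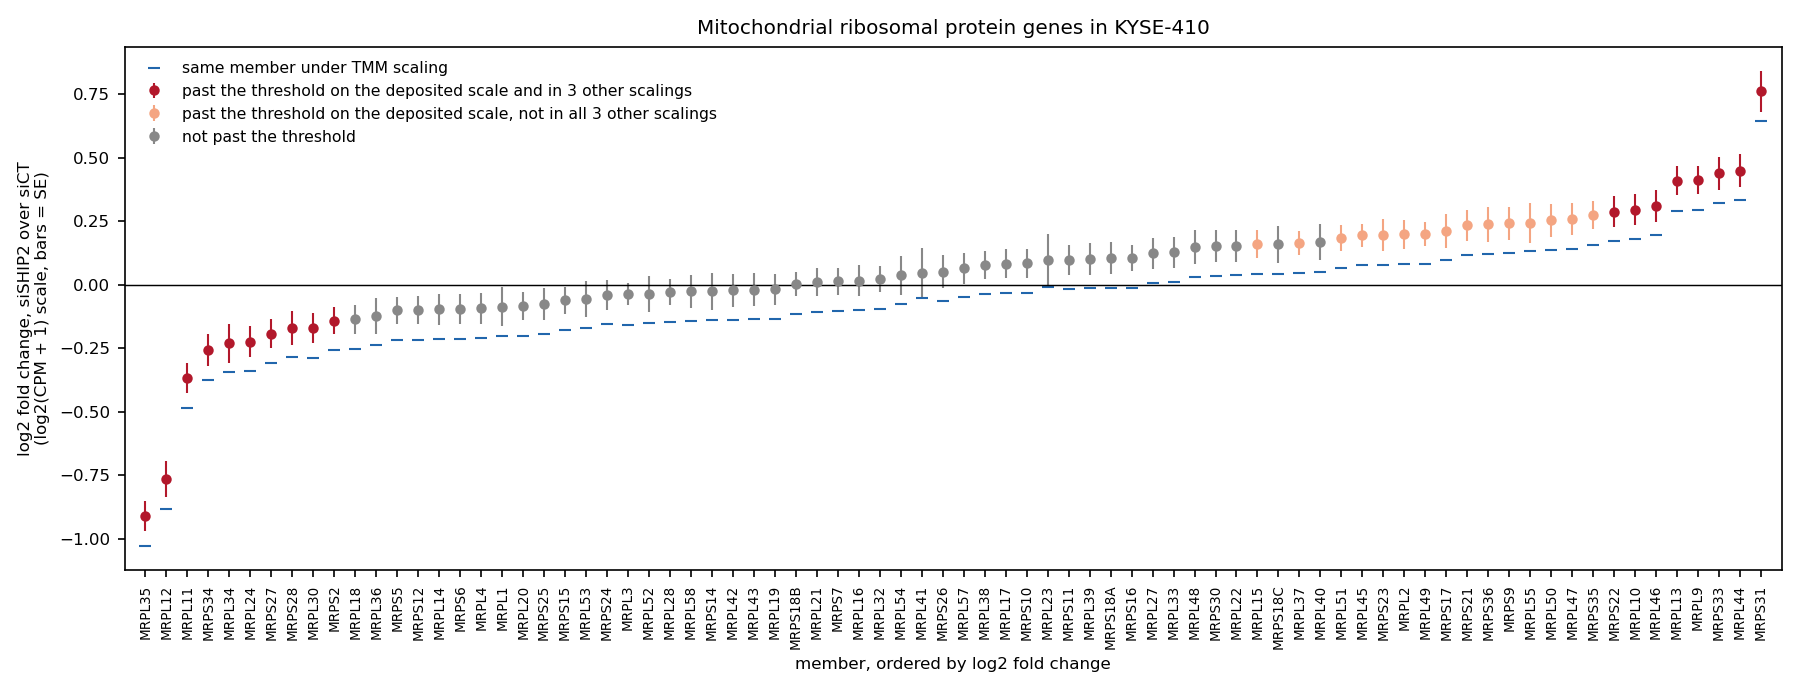
Log2 fold change of each of the 78 members in KYSE-410, siSHIP2 over siCT, on the log2(CPM + 1) scale, with its standard error as a bar; dark red points passed the threshold on the deposited scale and in 3 other scalings, light red points on the deposited scale but not in all others, and blue dashes give the same members after TMM scaling. MRPL35 and MRPL12 stand apart at the low end and MRPS31 at the high end, and TMM scaling lowers the whole set.

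The 2 largest falls were in the large subunit. MRPL35, a subunit with a bacterial counterpart, had 55.4, 47.3 and 53.5 CPM with siSHIP2 and 98.1, 96.4 and 101.3 CPM with siCT. Every siSHIP2 library was thus far below every siCT library, and the mean stood at 52.8% of control. The log2 fold change of MRPL35 was −0.91 (SE 0.06, adjusted p = 1.13e-08, chr2:86199355-86213794, ENSG00000132313). Members were picked here by the size of a called change, so groups that do not overlap add no support, here or below. How many of all tested genes had such groups was not counted. MRPL12, which forms the flexible stalk that recruits translation factors and is also reported to bind the mitochondrial RNA polymerase, had 40.4, 34.0 and 42.0 CPM with siSHIP2 and 72.1, 64.3 and 63.1 CPM with siCT. These groups did not overlap either, and the log2 fold change was −0.77 (SE 0.07, adjusted p = 4.07e-07). Of the exon bases of MRPL12, 68.2% are shared with AC139530.2 on the same strand, which had 66.3, 56.1 and 65.7 CPM with siSHIP2 and 114.3, 105.4 and 104.6 CPM with siCT. How reads in the shared bases were assigned is not given in the sources used here, so the levels of these rows are uncertain, while both rows were lower.

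MRPL11, part of the factor-binding region beside the stalk, had 216.9, 203.7 and 222.3 CPM with siSHIP2 and 283.4, 266.2 and 280.4 CPM with siCT (log2 fold change −0.37, SE 0.06, adjusted p = 7.58e-05). MRPL10, which anchors the copies of MRPL12 in the stalk, was higher, at 46.8, 51.3 and 45.9 CPM with siSHIP2 and 40.7, 36.5 and 39.5 CPM with siCT (0.30, SE 0.06, adjusted p = 0.000797). Members of 1 structural region of the ribosome thus moved in opposite directions. In the small subunit, MRPS34, a mitochondria-specific protein mutated in some patients with Leigh syndrome, fell by 0.26 on the log2 scale (SE 0.06, adjusted p = 0.00277), with 53.9, 47.1 and 51.8 CPM in siSHIP2 libraries and 63.9, 57.5 and 61.5 CPM in siCT libraries. The other members lower under every scaling were MRPL34, MRPL24, MRPS27, MRPS28, MRPL30 and MRPS2, with log2 fold changes between −0.23 and −0.14. MRPL30 and MRPS2 fall outside the rule for named members in this comparison and were named after their values were seen. Other genes cover 19.5% of the exon bases of MRPL30, AC079447.1 on the same strand the most. That row was higher with siSHIP2 (0.20, limma adjusted p = 0.0102), opposite to MRPL30. For MRPS28 the figure was 35.8%, with AC036214.3 on the same strand the most, and that row was lower (−0.36). The levels of these members are thus uncertain. When 1 library was left out at a time, the calls for MRPS28, MRPL34, MRPL30 and MRPS2 were each lost in 4 of 10 fits and that for MRPS27 in 2, while the other 13 of the 18 members kept theirs in all 10.

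MRPS31, a mitochondria-specific protein of the head of the small subunit, had the largest rise. It had 40.3, 47.3 and 45.2 CPM with siSHIP2 and 26.1, 24.2 and 26.6 CPM with siCT, so that every siSHIP2 library was above every siCT library. The log2 fold change was 0.76 (SE 0.08, adjusted p = 1.23e-06, chr13:40729135-40771173, ENSG00000102738). Among the 67 pseudogene rows of the members, MRPS31P5 was also higher, at 7.80, 9.05 and 7.49 CPM with siSHIP2 and 4.05, 4.30 and 4.40 CPM with siCT, whereas MRPS31P4 had a log2 fold change of 0.05 (adjusted p = 0.727). Each of these rows stood near 19% of the level of MRPS31 over all libraries (19.2% and 18.6%), so reads may have been split between near-identical copies.

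MRPL44, a mitochondria-specific protein with an RNase III fold that is mutated in an inherited cardiomyopathy, had 48.9, 55.3 and 53.7 CPM with siSHIP2 and 37.8, 39.1 and 37.8 CPM with siCT (0.45, SE 0.06, adjusted p = 2.35e-05). MRPL13 had 141.4, 159.7 and 168.0 CPM with siSHIP2 and 116.6, 115.6 and 119.2 CPM with siCT (0.41, SE 0.06, adjusted p = 2.37e-05). MRPL9 had 74.8, 79.4 and 80.5 CPM with siSHIP2 and 60.6, 58.1 and 56.9 CPM with siCT (0.41, SE 0.05, adjusted p = 1.12e-05), with 38.5% of its exon bases shared with OAZ3 on the opposite strand. In none of these 3 did the groups overlap, but they too were picked by the size of a called change. The remaining members higher in every scaling were MRPS33, MRPL46 and MRPS22, a small-subunit protein linked to inherited respiratory chain deficiency, at log2 fold changes of 0.44, 0.31 and 0.29. Of all 78 members, 26 share at least 10% of their exon bases with another gene, 12 of them among the 33 that passed the test.

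**Figure D2:**
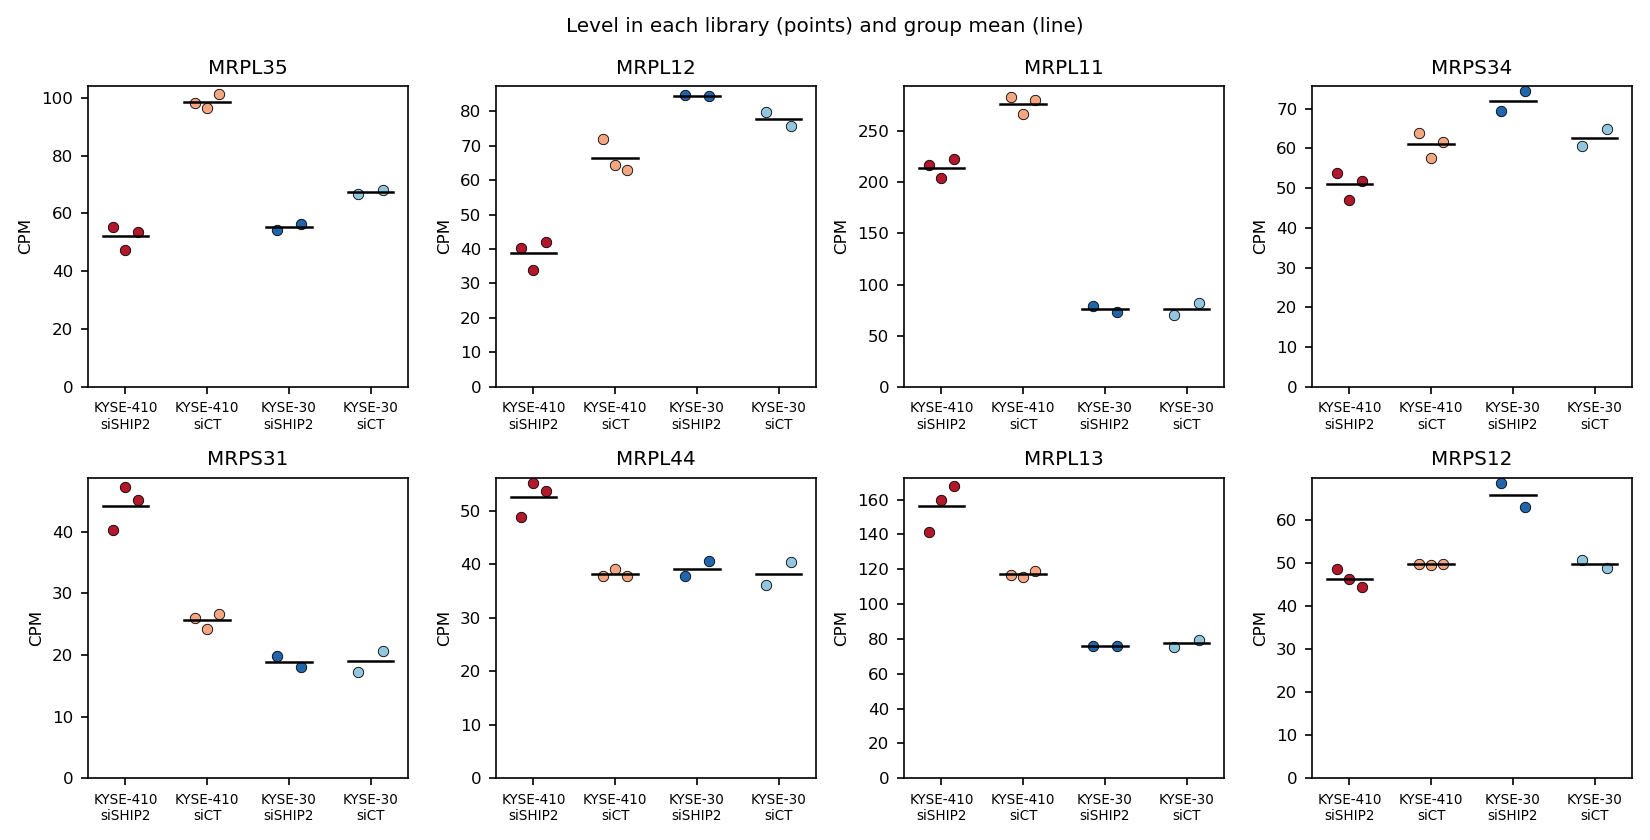
Level of 8 members in CPM in each library (points) with the group mean (line), for KYSE-410 with siSHIP2 and siCT and KYSE-30 with siSHIP2 and siCT from left to right. In KYSE-410, MRPL35, MRPL12, MRPL11 and MRPS34 are lower with siSHIP2 and MRPS31, MRPL44 and MRPL13 higher, while in KYSE-30 MRPS12 is the one with the clearest gap above siCT.

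By subunit, 14 large-subunit members of 51 were higher and 6 lower in KYSE-410, and 8 of 26 small-subunit members were higher and 4 lower, with median log2 fold changes of 0.07 and 0.03, where 30.6% of all tested genes were higher and 19.3% lower. After TMM scaling the balance turned, to 5 higher and 12 lower in the large subunit and 3 and 10 in the small subunit. Among the 46 members with a bacterial counterpart, 10 were higher and 8 lower (median −0.00), of which 3 and 8 stayed so in every scaling, and TMM scaling gave 3 higher and 19 lower. Among the 31 mitochondria-specific members, 12 were higher and 2 lower (median 0.11), of which 5 and 2 stayed so, and TMM scaling gave 5 higher and 3 lower. The difference between these sets was not tested. The summed level of all 78 members was 5160 to 5400 CPM with siSHIP2 and 4981 to 5160 CPM with siCT in KYSE-410. In KYSE-30 it was 4893 to 4974 CPM with siSHIP2 and 4586 to 4843 CPM with siCT.

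The sequences before 5 members' starts show what short motifs of mitochondrial biogenesis factors did and did not occur there. RefSeq promoters (GRCh38.p14, 250 bases before to 50 after a start) were matched for 70 of 78 members and searched on both strands. They are shown for MRPL12 and MRPL11, which were lower in KYSE-410, for MRPS31, which was higher, and for MRPL47 and MRPS18C, which hold several motifs. Printed are the 250 bases before the start, 5′ to 3′ along the gene, with capitals marking a match of CCGGAAG (ETS core), ATGGCGG (YY1 core), GCATGCG (NRF1 core) or CACGTG (E-box) on either strand, and overlapping matches joined.
MRPL12 (chr17:81703117-81703366, + strand): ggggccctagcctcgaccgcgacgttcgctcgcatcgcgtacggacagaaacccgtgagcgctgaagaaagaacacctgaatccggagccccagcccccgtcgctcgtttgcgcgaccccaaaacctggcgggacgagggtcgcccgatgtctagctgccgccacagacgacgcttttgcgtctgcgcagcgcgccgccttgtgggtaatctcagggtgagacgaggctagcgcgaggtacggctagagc
MRPL11 (chr11:66438849-66439098, − strand): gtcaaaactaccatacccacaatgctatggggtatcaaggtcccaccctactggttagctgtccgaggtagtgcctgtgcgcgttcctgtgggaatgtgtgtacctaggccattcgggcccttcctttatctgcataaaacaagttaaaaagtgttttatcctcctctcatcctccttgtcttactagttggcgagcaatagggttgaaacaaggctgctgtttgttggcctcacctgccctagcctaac
MRPS31 (chr13:40771191-40771440, − strand): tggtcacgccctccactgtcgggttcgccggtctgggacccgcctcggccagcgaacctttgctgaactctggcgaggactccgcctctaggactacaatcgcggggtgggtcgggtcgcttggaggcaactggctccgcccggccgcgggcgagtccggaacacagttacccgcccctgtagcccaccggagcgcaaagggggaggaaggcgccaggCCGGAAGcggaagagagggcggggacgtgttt
MRPL47 (chr3:179604639-179604888, − strand): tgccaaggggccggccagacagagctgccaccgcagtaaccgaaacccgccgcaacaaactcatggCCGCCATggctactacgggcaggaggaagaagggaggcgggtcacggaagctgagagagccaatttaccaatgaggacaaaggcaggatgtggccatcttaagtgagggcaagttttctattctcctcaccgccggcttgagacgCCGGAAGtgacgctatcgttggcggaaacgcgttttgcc
MRPS18C (chr4:83455808-83456057, + strand): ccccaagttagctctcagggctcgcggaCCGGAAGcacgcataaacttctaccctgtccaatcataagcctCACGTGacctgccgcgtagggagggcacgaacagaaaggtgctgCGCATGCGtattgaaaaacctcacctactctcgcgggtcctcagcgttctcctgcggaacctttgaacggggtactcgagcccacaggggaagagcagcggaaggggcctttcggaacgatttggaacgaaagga
None of the 4 motifs lay in the windows of MRPL12 and MRPL11. The window of MRPS31 held 1 ETS core, that of MRPL47 an ETS core and a YY1 core, and that of MRPS18C an ETS core, an E-box and 2 overlapping NRF1 matches, 1 on each strand.

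Over the whole windows of 300 bases, the ETS core occurred in 30 of 70 member promoters (42.9%), beside 20.3% of the promoters of other tested genes and 12.2% of all promoters. The YY1 core occurred in 24 (34.3%), beside 11.3% of other tested genes and 6.66% of all promoters. The NRF1 core occurred in 7 of the 70, beside 7.10% and 4.74%, and the E-box in 10 (14.3%), beside 12.1% and 8.78%. The counts by direction in KYSE-410 were small. Of the 19 higher members with a promoter in the table, 7 held an ETS core, 7 a YY1 core, 5 an E-box and 0 an NRF1 core. Of the 8 lower ones, 2 held an ETS core, 1 a YY1 core, 1 an E-box and 0 an NRF1 core. Of the 43 that did not pass the test, 21 held an ETS core, 16 a YY1 core, 4 an E-box and 7 an NRF1 core. These counts describe letters in a window and were not tested.

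In KYSE-30, 3 members passed the test (3.8%), 2 higher and 1 lower, where 2.36% of all tested genes passed (0.811% higher and 1.54% lower). MRPS12, the counterpart of the bacterial decoding-site protein in which streptomycin resistance arises, had 68.8 and 63.1 CPM with siSHIP2 and 50.9 and 48.8 CPM with siCT. Its log2 fold change was 0.40 (SE 0.07, adjusted p = 0.00952), and it passed in all 3 other scalings. MRPL34 had 19.98 and 19.2 CPM with siSHIP2 and 13.6 and 16.2 CPM with siCT (0.38, SE 0.09, adjusted p = 0.0470). MRPL35 had 54.2 and 56.2 CPM with siSHIP2 and 66.8 and 68.1 CPM with siCT (−0.28, SE 0.07, adjusted p = 0.0495). These last 2 calls were near the threshold, and both were lost after TMM and relative log expression scaling. With 2 libraries a group in KYSE-30, a fit on fewer has 1 library in a group, so its calls are not weighed here. The median log2 fold change of the 78 members was 0.064 with all libraries and 0.015 to 0.101 with 1 KYSE-30 library dropped.

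Across the 78 members, 57 had a log2 fold change above 0 in KYSE-30, with a median of 0.06 beside 0.00 for all genes tested. Without siCT replicate 1, whose summed level of 4586 CPM was the lowest of the 10 libraries, this median was 0.02. Between the lines, 33 members were above 0 in both and 7 below 0 in both. The log2 fold changes of the members in KYSE-410 and KYSE-30 had Pearson's r of 0.00 and Spearman's rho of −0.13 over 78 genes measured in the same libraries, given as a description. MRPL35 was lower in both lines, and MRPL34 was lower in KYSE-410 and higher in KYSE-30.

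**Figure D3:**
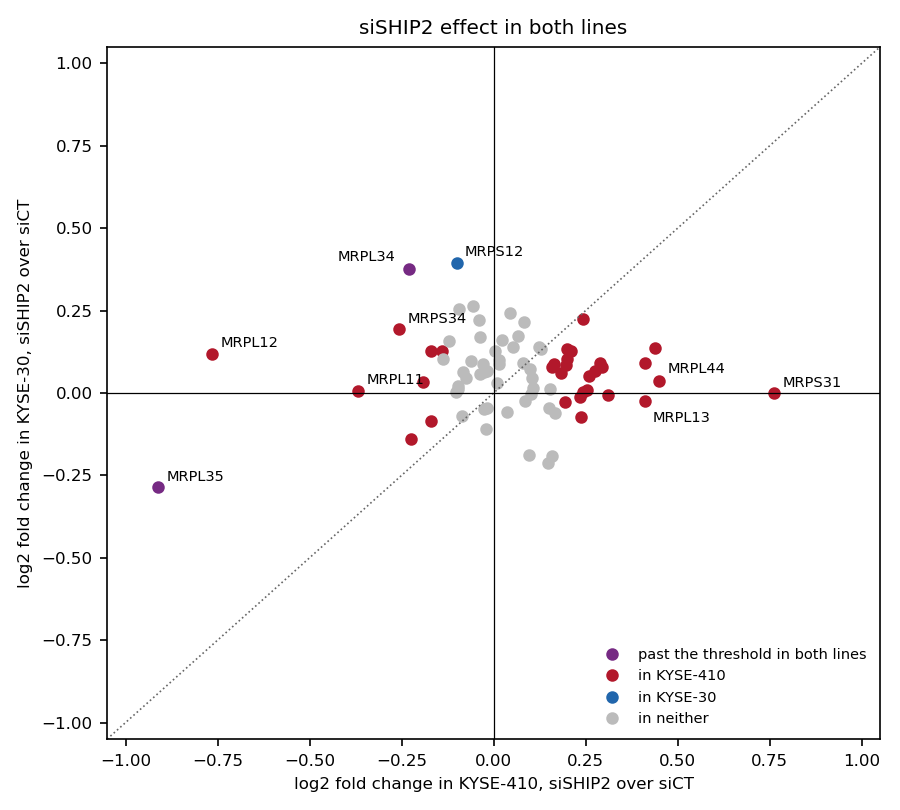
Log2 fold change of each member with siSHIP2 over siCT in KYSE-410 (x axis) and KYSE-30 (y axis), on the log2(CPM + 1) scale, coloured by the line in which it passed the threshold; the dotted line marks equal change. The members spread along the x axis around a y value near 0.06, MRPL35 lies in the lower left and MRPL34 in the upper left.

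The difference of the siSHIP2 effects, KYSE-410 minus KYSE-30, was tested as an interaction in the same fit. It passed for 22 members (28.2%), 10 positive and 12 negative, where 32.4% of all tested genes passed (19.5% positive and 12.9% negative). The split was 2 positive and 18 negative after TMM scaling, 3 and 19 after relative log expression scaling and 3 and 18 after upper quartile scaling. All 12 negative differences and 2 of the positive ones, MRPS31 and MRPL13, stayed past the threshold in the 3 other scalings. These scalings lowered the members' median difference from −0.008 to −0.12 (TMM), −0.10 (relative log expression) and −0.11 (upper quartile). Negative calls were thus favoured to stay, and their staying adds little support. The most negative difference was that of MRPL12 (−0.88, SE 0.11, adjusted p = 4.30e-05), which had 84.8 and 84.4 CPM with siSHIP2 and 79.9 and 75.7 CPM with siCT in KYSE-30. MRPL35 (−0.63, SE 0.09, adjusted p = 0.000126) and MRPL34 (−0.61, SE 0.12, adjusted p = 0.00128) came next. MRPS12 differed by −0.50 (SE 0.09, adjusted p = 0.000511), with 48.7, 46.3 and 44.5 CPM in siSHIP2 libraries and 49.97, 49.7 and 49.9 CPM in siCT libraries of KYSE-410. MRPS31 differed by 0.76 (SE 0.13, adjusted p = 0.000334), and its KYSE-30 levels of 19.9 and 18.0 CPM with siSHIP2 overlapped the 17.3 and 20.7 CPM with siCT. MRPL13 differed by 0.44 (SE 0.09, adjusted p = 0.00189), with 76.1 and 76.0 CPM in siSHIP2 libraries of KYSE-30 and 75.3 and 79.4 CPM in siCT libraries.

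More members differed between the lines than with siSHIP2 in either line, and so did more of all genes tested (75.9% against 49.9% and 2.36%). With siCT, 29 members were higher and 33 lower in KYSE-410 than in KYSE-30, 62 of 78 or 79.5%, where 75.9% of all tested genes passed (37.2% higher and 38.7% lower). Of these, 27 and 24 stayed so in the 3 other scalings, and 8 members differed by at least 2-fold. How many of all tested genes differed by that much was not counted. In bulk RNA, more cells of a kind and more RNA per cell cannot be told apart, and the fibroblast, squamous and leukocyte marker levels given above also differed between the lines, whose part here was not tested. MRPL45, which ties the ribosome to the inner membrane near the exit of the nascent chain, had 426.9, 408.8 and 432.0 CPM in KYSE-410 and 66.0 and 67.2 CPM in KYSE-30 with siCT, a 6.34-fold ratio of means (log2 difference 2.65, SE 0.05, adjusted p = 7.38e-17, chr17:38297023-38323218, ENSG00000278845). MRPL11 was 3.64-fold higher in KYSE-410 (276.7 ± 9.17 against 76.0 ± 7.99 CPM, SD, n = 3 and 2). MRPL40, whose gene lies in the segment lost in DiGeorge syndrome, was 2.86-fold higher (61.3 ± 1.46 against 21.5 ± 2.51 CPM, n = 3 and 2), and MRPL42 was 2.11-fold higher (106.0 ± 4.05 against 50.3 ± 2.62 CPM, n = 3 and 2).

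MRPS17, a small-subunit member with a bacterial counterpart, had 31.8, 26.6 and 27.7 CPM in KYSE-410 and 138.8 and 149.2 CPM in KYSE-30 with siCT (log2 difference −2.29, SE 0.07, adjusted p = 4.09e-14, chr7:55951819-55956501, ENSG00000239789). Other genes cover 27.0% of the exon bases of MRPS17, AC092647.5 on the same strand the most. That row had 25.2, 21.4 and 22.1 CPM in KYSE-410 and 115.4 and 122.0 CPM in KYSE-30 with siCT. The level of MRPS17 is thus uncertain, while both rows were lower in KYSE-410. MRPL41, a mitochondria-specific member also reported to act in apoptosis, had 4.20, 4.20 and 3.90 CPM in KYSE-410 and 23.8 and 22.1 CPM in KYSE-30 (−2.23, SE 0.11, adjusted p = 1.11e-11). MRPS2 and MRPS15 were each lower by 1.07 on the log2 scale in KYSE-410 (adjusted p = 4.98e-11 and 3.68e-11). None of the 8 had overlapping lines, but they were picked by a difference of at least 2-fold, so this adds no support. With siSHIP2, MRPL45 had 472.9, 484.7 and 494.5 CPM in KYSE-410 and 67.3 and 63.5 CPM in KYSE-30, and MRPL41 had 4.55, 4.70 and 3.60 CPM in KYSE-410 and 25.9 and 28.8 CPM in KYSE-30. The ratio of summed large-subunit to small-subunit levels was 2.32 to 2.34 and 2.35 to 2.38 in KYSE-410 with siSHIP2 and siCT, and 1.57 to 1.61 and 1.61 to 1.63 in KYSE-30 with siSHIP2 and siCT. MRPL45 and MRPL11 are large-subunit members and weigh on this ratio, which was not computed without them. Without MRPL45, the other 77 members summed to 4573 to 4733 CPM in KYSE-410 and 4520 to 4776 CPM in KYSE-30 with siCT, so the lines overlapped.

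The genes around a member often differed between the lines in the same direction as the member. For 77 members with at least 5 other tested genes within 1 Mb, the member's log2 difference and the median of its neighbours had Pearson's r of 0.61 and Spearman's rho of 0.68, and the signs matched for 62. These points share libraries and chromosome segments and the coefficients are descriptions. Of the 17 neighbours of MRPS17, 14 were at least 2-fold lower in KYSE-410, and the median of the 17 was −2.08. AC092647.5, which shares exon bases with MRPS17, is among these neighbours. For MRPL41 the median of 74 neighbours was −0.76, for MRPS2 that of 24 was −0.77 and for MRPS15 that of 22 was −0.73. Around the largest positive differences, the neighbours' medians were −0.12 for MRPL45 (43 genes, 5 of them at least 2-fold higher), −0.26 for MRPL11 (96 genes, 12 of them), 0.04 for MRPL40 (53 genes, 6 of them) and 0.04 for MRPL42 (13 genes, 0 of them). A median over such a window can miss a difference shared by few neighbours, and the cause was not tested. The same r over the 77 members was −0.01 for the siSHIP2 effect in KYSE-410 (38 signs matched), 0.35 for that in KYSE-30 (48) and 0.20 for the difference of the effects (51). DNA copy number was not measured in these files.

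**Figure D4:**
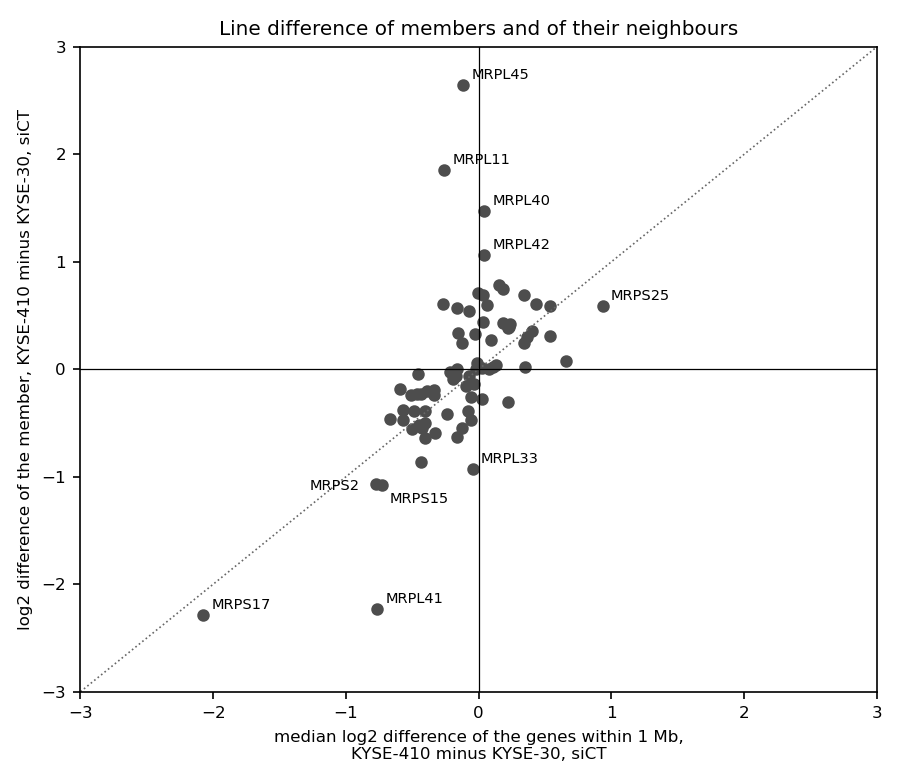
Log2 difference between KYSE-410 and KYSE-30 with siCT for each of 77 members (y axis) against the median of the other tested genes within 1 Mb (x axis), on the log2(CPM + 1) scale; the dotted line marks equality. MRPS17 lies near the line at the lower left, and MRPL45, MRPL11, MRPL40 and MRPL42 lie high on the y axis at x values from −0.26 to 0.04.

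Per kilobase of merged exons, MRPL45 had the highest level of the members over the 10 libraries (175.0 CPM per kb), followed by MRPL51 (108.5) and MRPL15 (107.4). The lowest were MRPL23 (2.21), MRPL46 (4.50) and MRPL42 (5.04), around a median of 21.3 CPM per kb. Merged exons overstate the length of a gene with long minor transcripts, as in MRPL42 with 16393 exon bases. In KYSE-410 with siSHIP2, the 3 paralogues MRPS18A, MRPS18B and MRPS18C had log2 fold changes of 0.11, 0.00 and 0.16, and the peptidyl-tRNA hydrolase MRPL58 had −0.03, with adjusted p from 0.0812 to 0.970. MRPS30 had 0.15 (adjusted p = 0.0536) and MRPL21 had 0.01 (adjusted p = 0.911).

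Around the ribosome, 87 genes in 7 lists chosen for its assembly and use were counted in the same fit. In KYSE-410 with siSHIP2, 44 of the 87 passed the test, a share near the 49.9% of all genes tested. In KYSE-410 with siSHIP2, 7 of 11 regulators of mitochondrial biogenesis were lower and 2 higher, and these 9 calls stayed in the 3 other scalings (median log2 fold change −0.22 in the list). PPARGC1A, a transcriptional coactivator of mitochondrial genes, had 7.25, 5.70 and 5.14 CPM with siSHIP2 and 9.59, 9.79 and 9.74 CPM with siCT (−0.62, SE 0.11, adjusted p = 0.000282), and was listed at 0 in all 4 libraries of KYSE-30. Its relatives PPARGC1B (13.5, 9.95 and 9.79 CPM with siSHIP2 and 18.2, 19.7 and 20.3 CPM with siCT) and PPRC1 (66.2, 67.6 and 65.1 CPM with siSHIP2 and 88.7, 83.5 and 84.8 CPM with siCT) were also lower, with log2 fold changes of −0.77 and −0.37. NRF1, a transcription factor of nuclear genes for mitochondrial proteins, fell by 0.19 on the log2 scale (SE 0.07, adjusted p = 0.0255). GABPA, the DNA-binding part of an ETS factor for such genes, was higher, at 69.5, 67.2 and 72.4 CPM with siSHIP2 and 55.3, 55.6 and 57.0 CPM with siCT (0.31, SE 0.05, adjusted p = 0.000117). MYC had 104.4, 112.4 and 100.1 CPM with siSHIP2 and 104.2, 101.6 and 102.0 CPM with siCT (0.04, adjusted p = 0.654).

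Of 17 mitochondrial aminoacyl-tRNA synthetases, 7 were lower and 5 higher in KYSE-410 (median 0.04), and 7 and 3 stayed so in the other scalings, where the split was 8 lower and 3 or 4 higher. EARS2, for glutamate, fell by 0.72 on the log2 scale, while TARS2, for threonine, was higher by 0.58. Of 26 assembly factors and rRNA modifiers, 8 were higher and 3 lower (median −0.00), and 5 and 3 stayed so, but the balance turned to 5 higher and 11 lower after TMM, 6 and 12 after relative log expression and 7 and 9 after upper quartile scaling. YBEY, an endoribonuclease needed for the small subunit, was higher at 3.55, 4.30 and 3.00 CPM with siSHIP2 and 1.90, 1.65 and 1.45 CPM with siCT (0.79, SE 0.11, adjusted p = 2.64e-05), and the helicase DDX28 was higher by 0.52. Of 17 translation factors, 4 were higher and 2 lower (median 0.00), and only the lower ones, C12orf65 (−0.44) and the elongation factor GFM1 (−0.23), stayed so in the other scalings. The split there was 0 higher and 7 lower after TMM, 1 and 7 after relative log expression and 1 and 6 after upper quartile scaling. Of 9 genes of mitochondrial transcription and mtDNA maintenance, 4 were higher and 0 lower on the deposited scale, and none of these calls stayed in all other scalings.

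Among 5 subunits with other names, CHCHD1 was higher in KYSE-410 (0.19, adjusted p = 0.0445), and its call was lost in other scalings. The mitochondrial rRNA MT-RNR1 had 289.9, 348.2 and 359.1 CPM with siSHIP2 and 262.2, 247.9 and 319.6 CPM with siCT (0.27, SE 0.09, adjusted p = 0.0157), a call also lost in other scalings, and MT-RNR2 did not pass (0.24, adjusted p = 0.0661). In KYSE-30, limma called 0 of the 87 genes with siSHIP2, where 2.36% of all tested genes passed, so this count is near the background. At an unadjusted p under 0.05 there were 25, a share that was not counted over all genes. Between the lines with siCT, both rRNAs were lower in KYSE-410, MT-RNR2 by 1.07 and MT-RNR1 by 0.75 on the log2 scale. DAP3, a small-subunit protein that binds GTP, was lower by 0.82 there and the recycling factor MRRF by 1.03, whereas the rRNA chaperone ERAL1 was higher by 2.57.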

How the data were processed

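RNA-seq of total RNA was analysed from 10 libraries in 4 groups (line by siRNA), as the labels give them. The deposited table holds CPM values (counts scaled to a fixed library total by the authors) per gene for every library, and all its value columns were used. Per the submitters' processing notes, STAR 2.5.3a, HTSeq and hg38 were used, and the notes give no roles or order. The values are whole multiples of a step near 0.05 CPM but did not give back reads, so depth is unknown and no count test was run. A gene was kept when 2 or more libraries reached 0.5 CPM. log2(CPM + 1) was fitted by limma 3.58.1 with a mean-dependent prior (R 4.3.3), with 4 group means and Benjamini-Hochberg adjustment over all 20466 genes at 0.05. Fold changes on this scale understate the change of low genes. The fit was tested on simulated data. Alternatives were 3 other scalings (TMM, relative log expression and upper quartile factors computed from the deposited values), other filters, a pseudocount of 0.1, replicate blocks, fewer libraries and leaving out each library. Positions and merged exon bases come from GENCODE 29 (GRCh38), and promoters from RefSeq (GRCh38.p14). Python 3.11.15 was used for tables and figures.

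Members and lists were chosen with earlier results of these data known. Named were up to 8 called members with the largest change in each direction and comparison, the 3 highest and 3 lowest per kilobase, a fixed set of members by role, and up to 4 called genes per other list. Pseudogene, overlapping and marker rows were named beside some of the results they touch, not all. Overlapping rows were not named for MRPS18A (47.0% of exon bases shared), MRPL53 (45.2%), MRPS18C (40.2%) and MRPL51 (31.3%), among others. The levels of such members may be uncertain in the same way. Whether reads were counted by strand is not given in the sources used here.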

Additional observations from a re-analysis of the deposited data

Results flagged for a closer look

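The siSHIP2 effect differed between the lines for 22 of the 78 members, by the interaction term of limma's fit with Benjamini-Hochberg adjustment over all genes tested. Values are differences of the effects, KYSE-410 minus KYSE-30, in log2 units, from 3 against 3 and 2 against 2 libraries. The negative differences were MRPL12 −0.88, MRPL35 −0.63, MRPL34 −0.61, MRPS12 −0.50, MRPS34 −0.45, MRPL11 −0.37, MRPL4 −0.35, MRPL53 −0.32, MRPS28 −0.30, MRPS2 −0.27, MRPS24 −0.26 and MRPL18 −0.24, and all of them stayed past the threshold in 3 other scalings. Those scalings moved the members' differences down, which favours negative calls. Limma's adjusted p was near the threshold for MRPL53 (0.036), MRPS28 (0.037), MRPS24 (0.044) and MRPL18 (0.047). The replicate block gave 8 negative calls, and leaving out siCT replicate 1 of KYSE-410 gave 7. Of the positive differences, MRPL13 0.44 and MRPS31 0.76 stayed past the threshold in the 3 other scalings. The other positive ones, MRPL45 0.22, MRPS33 0.30, MRPS36 0.31, MRPL46 0.32, MRPL9 0.32, MRPS18C 0.35, MRPL48 0.36 and MRPL44 0.41, did not in all 3. The lines also differed in how far INPPL1 was lowered, to 37.4% of siCT in KYSE-410 and 62.8% in KYSE-30, and the part of this in the differences was not tested.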

How the results depend on the processing

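The number of members called stayed within 1.5 times in KYSE-410 with siSHIP2 (29 to 36 over the alternatives that kept every library and 37 with only that line's libraries, against 33) and between the lines (54 to 63, against 62). In KYSE-30 it was 1, in place of 3, after TMM or relative log expression scaling, with no filter, with a pseudocount of 0.1, with the replicate block, with the crossed block and with only that line's libraries, and the 1 was higher each time. Leaving out each library in turn gave 27 to 37 members in KYSE-410, 0 to 4 in KYSE-30, 14 to 24 for the difference of the effects and 56 to 62 between the lines. A block on the replicate numbers gave 31, 1, 16 and 62 calls in the 4 comparisons. In KYSE-410 the correlations between same-numbered deviations were 0.041, −0.165 and 0.092. With so few libraries they cannot show whether the numbers pair the samples. In KYSE-30 that correlation was −0.116, and a block with the numbers crossed there, chosen after seeing the data, gave 34, 1, 18 and 62. Of 93 results on single members, 16 turned sign somewhere and 0 of these were called. For the siSHIP2 effect in KYSE-410, TMM scaling gave MRPL41 −0.0508, MRPL21 −0.1081, MRPS18A −0.0119, MRPS18B −0.1144. Relative log expression scaling gave, for the siSHIP2 effect in KYSE-410, MRPL41 −0.0439, MRPL21 −0.0992, MRPS18A −0.003, MRPS18B −0.1055. Upper quartile scaling gave, for the siSHIP2 effect in KYSE-410, MRPL41 −0.023, MRPL21 −0.0737, MRPS18B −0.08. For the siSHIP2 effect in KYSE-30, TMM scaling gave MRPL11 −0.0018. Relative log expression scaling gave, for the siSHIP2 effect in KYSE-30, MRPL11 −0.0056. For the difference of the effects, TMM scaling gave MRPS18A −0.0478. Relative log expression scaling gave, for the difference of the effects, MRPS18A −0.0351. Upper quartile scaling gave, for the difference of the effects, MRPS18A −0.0381. Upper quartile scaling gave, for the difference between the lines, MRPL21 −0.0238, MRPL47 −0.0071, MRPS36 −0.0654. Leaving out 1 library at a time, the log2 ranges were, for the siSHIP2 effect in KYSE-410, MRPL41 −0.013 to 0.1419, MRPL21 −0.0236 to 0.0358, MRPS18B −0.0087 to 0.0177, and for the siSHIP2 effect in KYSE-30, MRPL11 −0.099 to 0.113, MRPL58 −0.0066 to 0.1335, MRPL45 −0.0684 to 0.0143, MRPL21 −0.0346 to 0.0978, MRPL47 −0.0562 to 0.157, MRPS30 −0.151 to 0.0595, MRPS18A −0.0476 to 0.137. For the difference of the effects, MRPL21 −0.0885 to 0.044, MRPS18A −0.0316 to 0.153. For the difference between the lines, MRPL21 −0.0232 to 0.1093, MRPL47 −0.0466 to 0.1666, MRPS36 −0.0375 to 0.0377. The cause was not tested. The planned count tests were not run, because the whole numbers behind the values are rescaled counts rather than reads. Depth in reads is therefore unknown, no counting error is given, and 2 libraries a group limit what KYSE-30 can show.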
